A study of Canis lupus familiaris with 6 samples.

Results

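Interferon-stimulated genes were followed in 6 primary lines of canine osteosarcoma, a bone cancer common in large dogs. The list held 39 genes, chosen by name: 3 sensors of viral RNA, 6 receptors and signalling factors, and 30 effectors. A gene counted as measured when a probe set of the Affymetrix canine array carried it as its only symbol in the platform annotation, and the brightest such probe set, by its mean over the 6 arrays, stood for the gene. That gave 33 measured genes out of 15115 genes with such a probe set. The other 6, namely DDX58, IFNAR2, OASL, IFIT1, IFIT3 and SAMD9, had no such probe set and were not analysed here.

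UWKOS1, UWKOS3 and UWKOS7 formed tumours in mice that received them (tumorigenic, n = 3), while UWKOS2, UWKOS6 and UWKOS8 did not (non-tumorigenic, n = 3). All 6 were handled alike in minimum essential medium with 10% calf serum and harvested at about 70 to 80% confluency, and the RNA came from the cultures. Each line was arrayed once, without a normal or reference line, and the labels name no drug or interferon. Values are the deposited log2 signals, and every difference is a log2 difference, the tumorigenic minus the non-tumorigenic mean. With 3 lines a group, the number of arrays limits the precision, and p-values measure the spread between these lines.

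Type I interferons bind a receptor made of IFNAR1 and IFNAR2. The kinases JAK1 and TYK2 then set off a signal that, through factors such as STAT2 and IRF9, switches on a broad set of genes that block viral replication and slow cell proliferation. The same genes are induced when RNA sensors such as IFIH1 detect double-stranded RNA in the cytoplasm. Interferon alpha has been tested as a treatment of human osteosarcoma. The gene roles given here are those described in human and mouse.

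The 6 arrays had medians between 6.03 and 6.05. The log2 ratio of the 3′ to the 5′ actin control probe set, a measure of RNA integrity, was 0.64 to 1.11 in UWKOS1, UWKOS2, UWKOS3 and UWKOS7, but 2.86 in UWKOS6 and 2.07 in UWKOS8. Both of these lines are non-tumorigenic, while UWKOS2, at 0.82, lay among the tumorigenic lines. On 1 pair of GAPDH control probe sets the ratio was 0.40 to 0.61 in the tumorigenic and 0.60 to 0.90 in the other lines. On another GAPDH pair it was 0.86 to 1.07 in the tumorigenic lines and 0.95, 1.21 and 1.98 in UWKOS2, UWKOS6 and UWKOS8. Of the bone cell markers, the collagens COL1A1 and COL1A2 and SPARC were bright in every line, between 12.28 and 14.60. The bone enzyme ALPL and the sialoprotein IBSP had means below 6.07, the filter used here against dim probe sets. The osteopontin gene SPP1 was at 9.76 in UWKOS1 and between 2.79 and 3.30 elsewhere. Among markers of blood cells, the leukocyte antigen PTPRC (4.86 to 5.17) and the macrophage receptor CSF1R (5.34 to 5.65) were below the filter in all 6 lines. The macrophage markers CD68 and CD14 and the lymphocyte marker CD3E had means above it, of 6.88, 6.09 and 6.20, and CD68 differed by -1.07 without passing (limma adjusted p = 0.144).

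Few of the interferon-stimulated genes separated tumorigenic from non-tumorigenic lines. Of the 33 measured genes, 20 passed the filter and were tested with limma across 21462 probe sets. At an adjusted p of 0.05 OAS2 fell, 0 rose and 19 did not pass. Over all tested probe sets 12.0% passed, 4.74% lower and 7.28% higher, so 1 lower gene of 20, or 5.0%, is a share near the background. The remaining 13 genes were below the filter. In a fit of all 42924 probe sets without it, HERC5 was the single member past the threshold, in the upward direction, 3.03% of the 33 against a background of 3.06%. In that fit 0 members were lower, against 1.99%, and 5.05% of all probe sets passed in either direction. OAS2 did not pass in that fit (limma adjusted p = 0.069).

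**Figure D1:**
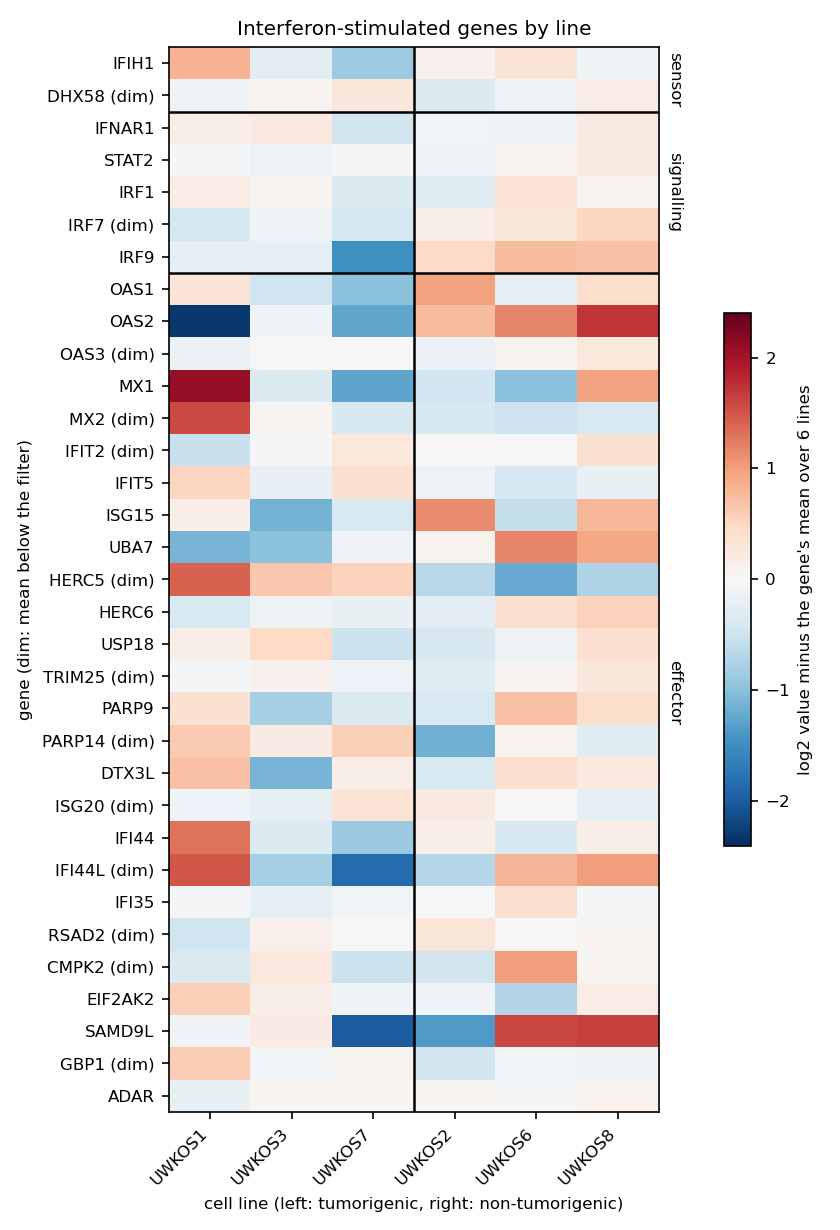
Each cell is the log2 value of a gene in a line minus that gene's mean over the 6 lines, with red above and blue below; genes are ordered by role and those marked dim had a mean below 6.07. OAS2 in UWKOS1 has the strongest colour, at -2.31, and OAS2 is red in all 3 non-tumorigenic lines. Some other strong colours lie in lines of both groups. MX1 is red in UWKOS1 (2.09) and UWKOS8 (0.96) and blue in UWKOS6 (-0.99) and UWKOS7 (-1.27). SAMD9L is red in UWKOS6 and UWKOS8 and blue in UWKOS2 (-1.35) and UWKOS7 (-1.99). MX2 is strong in UWKOS1 alone (1.59).

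Neither measured sensor separated the groups. IFIH1, also called MDA5, which recognises long double-stranded RNA, was at 8.39 in UWKOS1, 7.30 in UWKOS3 and 6.67 in UWKOS7, and at 7.67 in UWKOS2, 7.85 in UWKOS6 and 7.45 in UWKOS8. The tumorigenic lines thus held both its highest and its lowest value, and the groups overlapped. Its difference was -0.20, with a 95% interval from -1.23 to 0.83 (limma adjusted p = 0.781), which does not exclude a change of over 1 in the downward direction. DHX58, also called LGP2, a regulator of the other RNA sensors, was dim, at 5.39, 5.53 and 5.74 in UWKOS1, UWKOS3 and UWKOS7 and at 5.11, 5.38 and 5.63 in UWKOS2, UWKOS6 and UWKOS8. Its difference was 0.18 with an interval from -0.25 to 0.61.

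Among the signalling factors, IRF9 differed most. IRF9 is a DNA-binding partner of STAT2. On its brightest probe set it was at 7.48 in UWKOS1, 7.49 in UWKOS3 and 6.25 in UWKOS7, and at 8.18 in UWKOS2, 8.48 in UWKOS6 and 8.42 in UWKOS8. The groups did not overlap, and UWKOS7 stood 1.23 below the next line. The difference of -1.29 (SE 0.36), 2.44-fold, did not pass (limma adjusted p = 0.0647). The next brightest probe set of IRF9, which was looked at after the values were seen, differed by -0.67 and did pass (limma adjusted p = 0.0383), but not when any 1 line was left out (limma adjusted p between 0.0574 and 0.141). The dimmest differed by -0.14. IRF9 on its brightest probe set passed without UWKOS7, with a difference of -0.88 (limma adjusted p = 0.0357). It did not pass when UWKOS6 and UWKOS8, whose actin ratios were high, were left out together, where the difference was -1.11 (limma adjusted p = 0.553).

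None of the other signalling factors passed. STAT2, the partner of IRF9, stayed within a range of 0.35 over the lines, at 8.44, 8.35 and 8.44 in UWKOS1, UWKOS3 and UWKOS7 and at 8.40, 8.57 and 8.71 in UWKOS2, UWKOS6 and UWKOS8. All 5 of its probe sets differed by -0.28 to -0.02, none past the threshold. The receptor chain IFNAR1 was at 6.64, 6.73 and 6.05 in UWKOS1, UWKOS3 and UWKOS7 and at 6.43, 6.38 and 6.70 in the other group, which gave a difference of -0.03 with an interval from -0.58 to 0.52. Its values therefore overlapped fully. IRF1, a transcription factor that interferon gamma induces strongly, was at 8.01, 7.92 and 7.50 and at 7.56, 8.18 and 7.91 in the same order, a difference of -0.07 (interval -0.63 to 0.49).

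IRF7, the factor that amplifies interferon alpha production, was dim but lower in every tumorigenic line. It was at 4.84 in UWKOS1, 5.18 in UWKOS3 and 4.83 in UWKOS7, and at 5.41 in UWKOS2, 5.55 in UWKOS6 and 5.77 in UWKOS8. The difference was -0.63 (SE 0.16), and it did not pass in the fit without the filter (limma adjusted p = 0.0825). Since all of these values lie under 6.07, it is not known that they are above background.

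OAS2 fell in the tumorigenic lines. The OAS enzymes make 2′-5′-linked oligoadenylates in the presence of double-stranded RNA, and these activate an RNase that degrades RNA. OAS2 was at 6.07 in UWKOS1, 8.29 in UWKOS3 and 7.14 in UWKOS7, and at 9.14 in UWKOS2, 9.57 in UWKOS6 and 10.10 in UWKOS8. The groups did not overlap, and the tumorigenic lines were spread more widely, with an SD of 1.11 against 0.48. The mean was 7.17 in the tumorigenic and 9.60 in the others, a difference of -2.43 with an interval from -3.79 to -1.08, or 5.40-fold lower (limma adjusted p = 0.0424). In cultures, fewer cells expressing a gene and less of its RNA per cell cannot be told apart.

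The OAS2 call rested on 1 probe set and was close to the threshold. Of the 6 fits with a line left out, OAS2 passed in the fit without UWKOS3 (-2.99, limma adjusted p = 0.0432) and in no other. In the others the limma adjusted p lay between 0.0692 and 0.136 and the difference between -2.67 and -1.89. These 6 fits called from 52 (without UWKOS6) to 3169 (without UWKOS7) of 21462 probe sets. All but the fit without UWKOS7 called fewer than the 2580 called with all lines. With both UWKOS6 and UWKOS8 left out the difference was -1.97 (limma adjusted p = 0.488), in a fit that called 9 of 21462 probe sets. With the GAPDH 3′ to 5′ ratio of each array as a covariate it was -2.19 (limma adjusted p = 0.463). Probes of related genes, such as the OAS genes, MX1 and MX2, or HERC5 and HERC6, may bind each other's transcripts, and this was not tested.

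Neither of its measured relatives passed. OAS1 was at 8.82, 8.05 and 7.53 in UWKOS1, UWKOS3 and UWKOS7 and at 9.48, 8.30 and 8.96 in UWKOS2, UWKOS6 and UWKOS8. UWKOS1, the lowest line for OAS2, was the third highest for OAS1, and the groups overlapped. Its difference was -0.78 (limma adjusted p = 0.256), and its 5 probe sets differed by -0.83 to -0.09. OAS3 had a mean below the filter and lay between 5.80 and 6.20, with a difference of -0.11 that turned to 0.06 with centring on the hybridization controls. In the RefSeq dog annotation OAS1, OAS3 and OAS2 lie next to each other in this order.

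**Figure D2:**
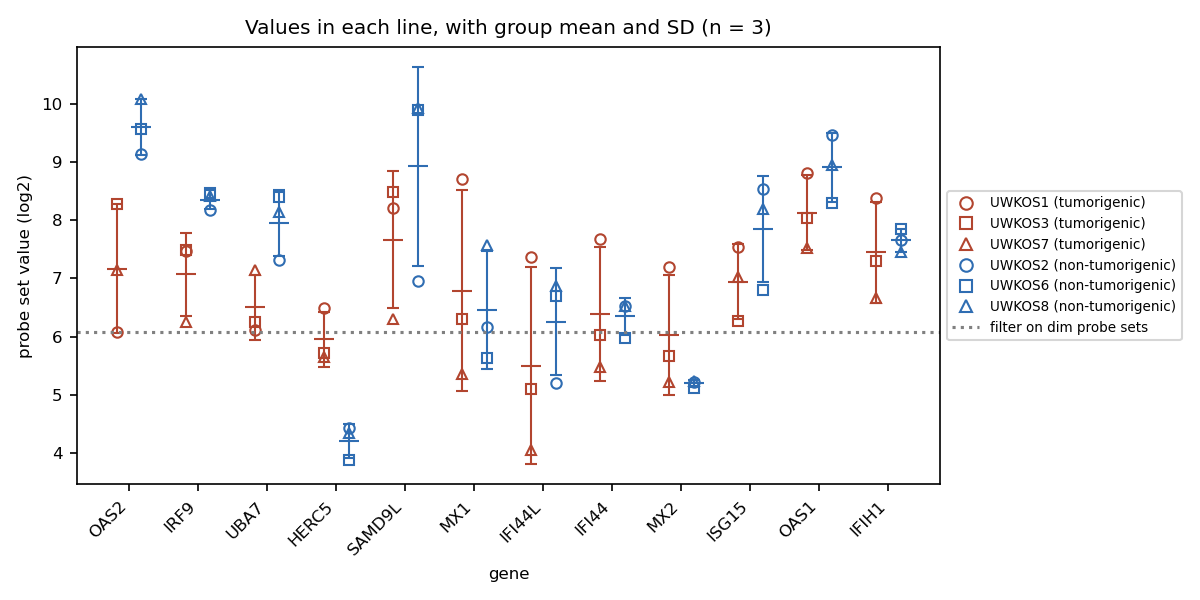
Points are log2 values of 12 members in each line, red for tumorigenic and blue for non-tumorigenic, with bars for the group mean and SD (n = 3) and a dotted line at the filter of 6.07. OAS2, IRF9, UBA7 and HERC5 have groups that do not overlap, while the tumorigenic values of MX1 run from 5.35 to 8.71 and enclose all those of the other group.

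UWKOS1 was the highest line for both MX genes, and for MX1 UWKOS8 also stood above the remaining lines. MX1 and MX2 encode dynamin-like GTPases that trap viral components, and they are direct neighbours. MX1 was at 8.71 in UWKOS1, 6.30 in UWKOS3 and 5.35 in UWKOS7, and at 6.16 in UWKOS2, 5.63 in UWKOS6 and 7.58 in UWKOS8. MX2 was at 7.20 in UWKOS1, 5.67 in UWKOS3 and 5.22 in UWKOS7, and at 5.22 in UWKOS2, 5.12 in UWKOS6 and 5.24 in UWKOS8. UWKOS1 thus exceeded the next line by 1.13 for MX1 and by 1.53 for MX2. The group differences were 0.33 for MX1 (limma adjusted p = 0.833) and 0.84 for MX2, which was below the filter (limma adjusted p = 0.379 without it). Without UWKOS1 they were -0.63 and 0.25.

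IFI44 and IFI44L, neighbouring genes of poorly known function whose RNA is a common readout of interferon exposure, showed the same line at the top. IFI44 was at 7.68 in UWKOS1, 6.02 in UWKOS3 and 5.47 in UWKOS7, and at 6.53 in UWKOS2, 5.98 in UWKOS6 and 6.53 in UWKOS8. IFI44L was at 7.37, 5.09 and 4.04 in the tumorigenic lines and at 5.20, 6.70 and 6.87 in the others, in the same order. UWKOS1 was highest and UWKOS7 lowest on both probe sets of IFI44 and on all 3 of IFI44L. The group difference of IFI44L was -0.76 on the brightest, 0.11 and 0.66 on the others, so its probe sets did not settle a direction between groups. IFI44 differed by 0.05, which became -0.03 with the arrays centred on the 75th percentile.

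Genes of the ISG15 system did not share a direction. ISG15 is a ubiquitin-like protein; UBA7 is the enzyme that activates it, HERC5 the ligase that attaches it to other proteins in human cells, and USP18 the protease that removes it and also restrains the receptor. ISG15 itself was at 7.55 in UWKOS1, 6.26 in UWKOS3 and 7.03 in UWKOS7, and at 8.54 in UWKOS2, 6.81 in UWKOS6 and 8.19 in UWKOS8. The groups overlapped, and the difference of -0.90 did not pass (limma adjusted p = 0.289).

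UBA7 was at 6.12 in UWKOS1, 6.25 in UWKOS3 and 7.14 in UWKOS7, and at 7.31 in UWKOS2, 8.40 in UWKOS6 and 8.14 in UWKOS8. The groups did not overlap, though UWKOS7 and UWKOS2 lay close together. The difference of -1.45 (SE 0.39), 2.73-fold, did not pass (limma adjusted p = 0.0583), and its other probe sets differed by -1.02 and -1.09. Without UWKOS7 UBA7 passed, with a difference of -1.77 (limma adjusted p = 0.0342). With both UWKOS6 and UWKOS8 left out the difference was -0.81, and with the GAPDH ratio as a covariate it was -0.47 (limma adjusted p = 0.599 and 0.756).

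HERC5 was the member that went most clearly the other way. It was at 6.49 in UWKOS1, 5.72 in UWKOS3 and 5.64 in UWKOS7, and at 4.42 in UWKOS2, 3.87 in UWKOS6 and 4.33 in UWKOS8. The lowest tumorigenic line stood above the highest of the other group. The difference was 1.74 with an interval from 1.07 to 2.41, or 3.35-fold higher (limma adjusted p = 0.0307 in the fit without the filter). It passed without UWKOS1 or UWKOS7 and did not without UWKOS2, UWKOS3, UWKOS6 or UWKOS8 (limma adjusted p between 0.0577 and 0.115), nor without both UWKOS6 and UWKOS8, where the difference was 1.53 (limma adjusted p = 0.417). Unfiltered fits with 1 line left out called from 31 (without UWKOS6) to 2922 (without UWKOS7) of 42924 probe sets, against 2169 with all lines. HERC5 had 1 probe set, which was below the filter. All of its values except that of UWKOS1 lie under 6.07 and may be background, which leaves the size of the difference uncertain.

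HERC6, the direct neighbour of HERC5 and its counterpart as ISG15 ligase in mouse, passed the filter and differed by -0.45, with an interval from -1.04 to 0.15 (limma adjusted p = 0.269). USP18 differed by 0.08, between 6.58 and 7.57 over the lines, and TRIM25, a ubiquitin ligase that acts on the RNA sensor RIG-I, by -0.02. Of the 6 measured genes of the ISG15 system, 1 was lower without overlap (UBA7) and 1 higher (HERC5). Over all probe sets 29.2% did not overlap in either direction. UBA7 did not pass the threshold and HERC5 was below the filter.

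SAMD9L split each group. It encodes a restraint on translation and proliferation, and was at 8.21 in UWKOS1, 8.49 in UWKOS3 and 6.31 in UWKOS7, and at 6.95 in UWKOS2, 9.90 in UWKOS6 and 9.94 in UWKOS8. UWKOS6 and UWKOS8, which also had the higher actin ratios, stood over 1 log2 unit above the other 4 lines, and UWKOS2 lay below 2 of the tumorigenic lines. The difference of -1.26 did not pass (limma adjusted p = 0.408), and without UWKOS6 and UWKOS8 it was 0.72.

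PARP9, DTX3L and PARP14 lie within a short stretch of the same chromosome. PARP9 and DTX3L form a complex with ubiquitin ligase activity, and PARP14 is a mono-ADP-ribosyl transferase. PARP14 was at 6.66 in UWKOS1, 6.24 in UWKOS3 and 6.61 in UWKOS7, and at 4.89 in UWKOS2, 6.12 in UWKOS6 and 5.74 in UWKOS8. Its groups did not overlap, but UWKOS3 exceeded UWKOS6 only slightly, and the difference of 0.92 did not pass (limma adjusted p = 0.165 without the filter). Its other probe set was very dim and differed by 0.00. PARP9 differed by -0.51 and DTX3L by -0.18, and UWKOS3 was the lowest line for both.

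The 15 genes for which not every line's value is given here, HERC6, USP18, TRIM25, OAS3, PARP9 and DTX3L among them, differed by between -0.51 and 0.46, and none passed (lowest limma adjusted p, without the filter, 0.269). The steadiest was ADAR, which edits adenosines in double-stranded RNA, with a range of 0.26 over the 6 lines. IFIT5, an RNA-binding member of the IFIT family, was well above the filter at a mean of 9.46, with a difference of 0.46. Its relative IFIT2 was below it in every line, between 3.44 and 4.34. The kinase EIF2AK2, or PKR, which halts translation on double-stranded RNA, differed by 0.41. RSAD2, or viperin, and its neighbour CMPK2 were both dim, with differences of -0.23 and -0.42, and GBP1, a GTPase induced by interferon gamma, was dim with 0.40. ISG20, an exonuclease, differed by -0.02 and IFI35 by -0.22. Under another scaling of the arrays 9 members changed sign, all of them with differences near 0: IFNAR1, STAT2, IRF1, OAS3, USP18, TRIM25, ISG20, IFI44 and ADAR.

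**Figure D3:**
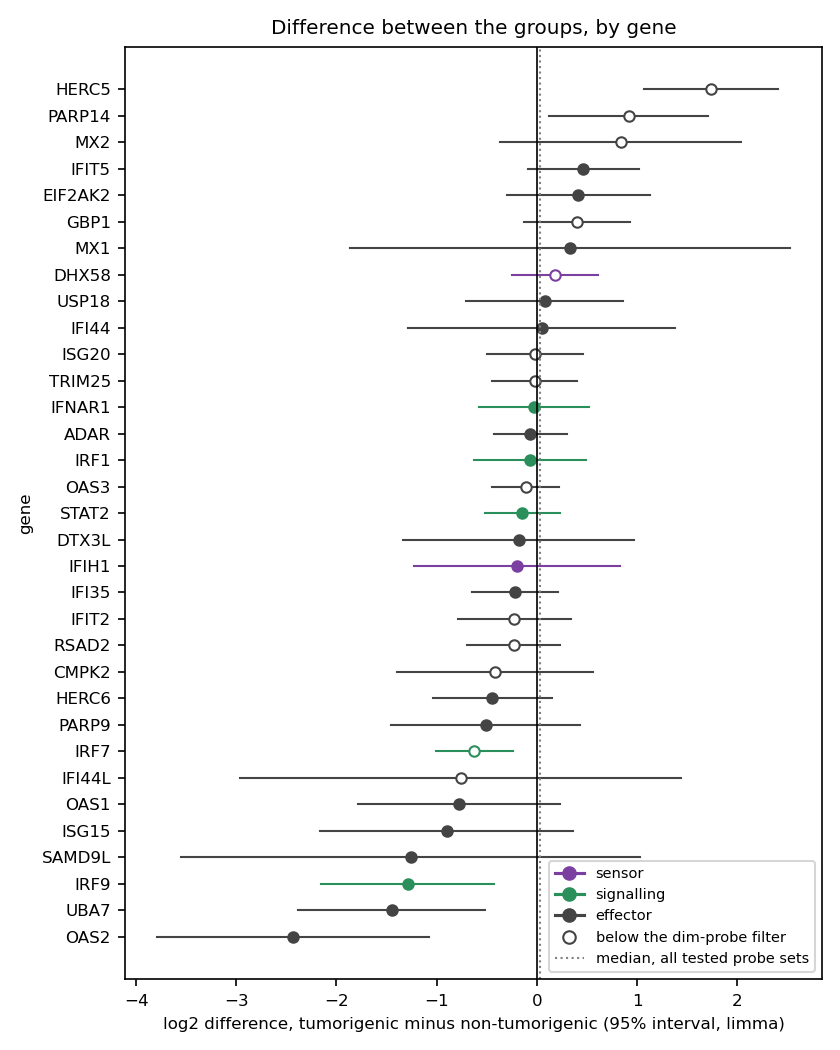
Each point is the log2 difference of a gene, tumorigenic minus non-tumorigenic, with its unadjusted 95% limma interval, coloured by role and open where the gene was below the filter on dim probe sets. The points run from -2.43 for OAS2 to 1.74 for HERC5, and most intervals include 0.

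The medians of sensors, signalling factors and effectors all lay near 0. The median difference was -0.01 over the 2 measured sensors, -0.15 over 5 signalling factors and -0.14 over 26 effectors. Over all 33 genes it was -0.15, against -0.04 over all 42924 probe sets, and 23 genes, 69.7%, were lower on average against 55.7% of all probe sets. Of the 20 tested genes 15 were lower, 75% against 48% of all tested probe sets. The median over the 33 became 0.02 with centring on the hybridization controls. That scaling moved the median of all tested probe sets from 0.03 to 0.20, and the 20 tested members were at -0.22 relative to it before and after. This relative value was -0.62 without UWKOS1, between -0.30 and -0.15 without any other single line, with the smallest size without UWKOS6, and 0.01 without both UWKOS6 and UWKOS8. With both left out the median over the 33 genes was 0.08.

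Groups that did not overlap were no more common among the 33 genes than over all probe sets. Of the 33, 5 (OAS2, UBA7, IRF9, IRF7 and IFI35) had every tumorigenic line below every other line, 15.2% against a background of 15.3%. The opposite held for 3 (HERC5, PARP14 and GBP1), 9.09% against 13.9%, which makes 8 of 33 in either direction against 29.2%. For IFI35 and GBP1 the nearest values of the 2 groups are equal at 2 decimals. Among the 20 tested genes 4 were lower in this way, 20.0% against 16.9%, and 0 were higher against 21.3%, so that 20.0% did not overlap in either direction against 38.2% of all tested probe sets.

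The roles differed more in how widely the lines were spread. The median range from the lowest to the highest line was 1.52 over the effectors, 1.18 over the 2 sensors and 0.68 over the signalling factors. It was 1.30 over all 33 genes and 0.69 over all probe sets, or 1.62 over the 20 tested genes and 1.04 over all tested probe sets. A range over 2 was seen in 35% of the 20 tested genes, against 14.9% of all tested probe sets. Of the 33 genes it was seen in 10, 30.3%, against 10.0% of all probe sets. The 10 were OAS2 (4.02), SAMD9L (3.63), MX1 (3.36), IFI44L (3.33), HERC5 (2.62), ISG15 (2.28), UBA7 (2.28), IRF9 (2.23), IFI44 (2.21) and MX2 (2.09). They were not led by the same line: UWKOS1 was highest for MX1, MX2, IFI44, IFI44L and HERC5, UWKOS8 for OAS2 and SAMD9L, UWKOS6 for UBA7 and IRF9, and UWKOS2 for ISG15. These figures describe the list and are not a test.

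Counted by line, UWKOS1 was highest for 11 of the 33 genes, 33.3% against 16.8% of all probe sets. It was also lowest for 7, among them OAS2, UBA7 and RSAD2, 21.2% against 27.5%. UWKOS7 was lowest for 12, 36.4% against 13.0%, including 4 of the 5 signalling factors, IFNAR1, IRF1, IRF7 and IRF9. It lay below the next line by 1.23 for IRF9 and 0.33 for IFNAR1, but by only 0.06 for IRF1 and 0.01 for IRF7. On some of the dimmer probe sets of IFNAR1, IRF1 and IRF9 another line was lowest. UWKOS8 was lowest for 0 of the 33, against 13.3% of all probe sets, and was above the gene's mean for 25 of them. Among the 20 tested genes UWKOS1 was highest for 30%, against 20.7% of all tested probe sets. UWKOS7 was lowest for 45% of them against 13.6%, and UWKOS8 for 0 against 16.9%. The tumorigenic group thus held both the line that was most often highest and the line that was most often lowest. The medians of the members' deviations were 0.15 in UWKOS1, -0.08 in UWKOS3 and -0.18 in UWKOS7, and -0.12 in UWKOS2, 0.06 in UWKOS6 and 0.22 in UWKOS8.

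Epithelial markers were also high in UWKOS1, the line in which MX1, MX2, IFI44 and IFI44L were highest. The adhesion molecule EPCAM was at 7.65 there and below the filter in the other 5 lines, and KRT18 at 7.44 there and between 5.07 and 6.41 elsewhere. The keratin KRT8 was high in UWKOS1 and UWKOS3, at 6.49 and 6.64, and CDH1 was dim throughout, between 3.95 and 4.26. Summed on the linear scale, the 4 epithelial markers, all measured, ran from 78.4 to 480 in the tumorigenic and from 71.3 to 91.5 in the non-tumorigenic lines. The bone cell markers, 9 of 10 measured and 6 above the filter, did not overlap between the groups, with sums from 21200 to 37500 and from 43800 to 51100. Among them OMD, a bone matrix proteoglycan, fell by 4.53 (limma adjusted p = 0.0262) and was the only bone cell marker to pass. The sums rest mainly on COL1A1, COL1A2 and SPARC, and SPP1, IBSP and RUNX2 had higher means in the tumorigenic lines, by 2.26, 0.43 and 0.22. The 6 macrophage markers ran from 257 to 366 and from 351 to 407, the 5 lymphocyte markers from 136 to 190 and from 185 to 215, and the 4 endothelial markers from 403 to 574 and from 340 to 351. No list was at 0, since the array values have no zero. Their part in the interferon-stimulated genes was not tested.

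Probe sets of the same gene mostly gave the same direction. Of 15 members with several probe sets, 10 had all of them on 1 side of 0 in the deposited scaling. The exceptions were IFNAR1, IRF1 and DTX3L, with small differences, IFI44L as described, and PARP14 with its probe set at 0.00. The highest line was the same on every probe set for 9 of the 15 genes and the lowest for 6. UWKOS1 was highest on every probe set of IFI44 and IFI44L, UWKOS2 on all 5 of OAS1, and UWKOS6 on all 3 of UBA7. The wide gap of UWKOS7 below the other lines in IRF9 was seen only on the brightest of its 3 probe sets. On the next brightest UWKOS7 was lowest at 7.13, close to UWKOS3 at 7.27. On the dimmest UWKOS1 was at 5.01 and UWKOS7 at 5.22. The lowest line of DTX3L and the highest of CMPK2 also differed between probe sets.

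**Figure D4:**
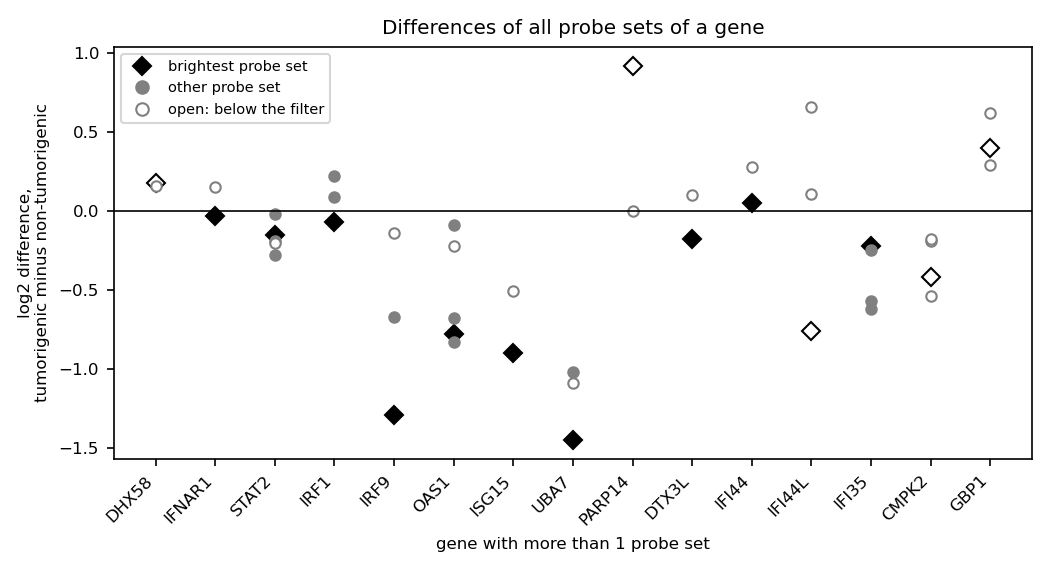
For the 15 members with more than 1 probe set, each symbol is the log2 difference of a probe set, tumorigenic minus non-tumorigenic, with diamonds for the brightest and open symbols for those below the filter. In the deposited scaling all probe sets of UBA7, OAS1 and ISG15 lie below 0, and those of IFI44L run from -0.76 to 0.66.

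None of the measured interferon genes had a mean above the filter. IFNB1, the interferon beta gene, was between 2.71 and 3.24, IFNG, the gene for interferon gamma, between 4.23 and 4.58, and IFNK between 3.98 and 4.36. IFNL1, a type III interferon, was between 5.86 and 6.07. These are the 4 measured of 8 listed, their ranges over the lines were at most 0.52, and none passed in the fit without the filter.

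Of 77 further genes of the pathway that are not on the list, 53 were measured and 35 passed the filter. Of those 35, 2 rose, 2 fell and 31 did not pass, against the background of 7.28% and 4.74%; their median difference was -0.17. CCL5, a chemokine induced by interferon and by NF-kappa-B, was at 5.09, 5.53 and 4.42 in UWKOS1, UWKOS3 and UWKOS7 and at 7.72, 7.51 and 8.33 in UWKOS2, UWKOS6 and UWKOS8, a difference of -2.84 (limma adjusted p = 0.0144). IFNGR2, a chain of the interferon gamma receptor, fell by 0.89 from a mean of 11.71 to 10.82 (limma adjusted p = 0.0424). PNPT1, a mitochondrial RNA exonuclease, rose by 1.21 (limma adjusted p = 0.02), and PTPN2, a phosphatase that acts on JAK kinases, rose by 1.32 (limma adjusted p = 0.0392). Of these 4 genes none passed without UWKOS6, without both UWKOS6 and UWKOS8, or with the GAPDH ratio as a covariate, in fits that called 52, 9 and 7 of 21462 probe sets. CCL5 passed in each of the other 5 fits that left out 1 line. IFNGR2 and PTPN2 were not called in the fit without the filter (limma adjusted p = 0.052 and 0.0567), nor with a gene's probe sets averaged. CCL5 and PNPT1 were called in both. The kinase JAK1 was between 11.73 and 12.35, and STAT3 differed by -1.03 without passing (limma adjusted p = 0.0825).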

How the data were processed

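Total RNA was extracted with Trizol, and cRNA from 10 µg of it was hybridised to Affymetrix canine arrays, 1 per line, per the labels' protocols. The deposited values are on a log2 scale. Per the submitters' processing notes MAS5 was among the tools (role and version not given). The columns have nearly equal quantiles, so the normalization behind them is not settled here. They were used as deposited, without an offset.

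Of 43035 rows, 111 were control probe sets. Of the other 42924, 29254 had 1 gene symbol, 439 several and 13231 none in GEO's platform annotation, which may be out of date. Updating symbols by Entrez identifier with RefSeq (assembly UU_Cfam_GSD_1.0) gave the same 33 genes on the same 33 probe sets. That table was also used for which genes neighbour each other. The 21462 probe sets with a mean at or above the median of 6.07 were tested with limma 3.58.1 in R 4.3.3 (lmFit and eBayes, no covariate), with Benjamini-Hochberg adjustment over all of them and a threshold of 0.05. Members below the filter were read from the same fit over all 42924 probe sets. No detection calls were used. The fit was tested on simulated data.

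The list, its roles, the pathway genes and the marker lists were chosen with earlier results of these data known. Values by line are given for members past the threshold, for the 10 with the largest difference, the 10 with the largest range, and for sensors and signalling factors. From the pathway list the genes past the threshold are named; the interferons, JAK1 and STAT3 were added after their values were seen. The alternatives were other filters, scalings and variance models, other ways to pick probe sets, leaving out lines, and the GAPDH ratio as a covariate. Those for the pathway count were chosen after seeing the data. Figures were drawn with matplotlib 3.10.9.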

Additional observations from a re-analysis of the deposited data

How the results depend on the processing

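The count of members past the threshold was 1 lower and 0 higher. Without the filter on dim probe sets it was 0 lower and 1 higher. It was 3 lower with array weights (IRF9, OAS2 and UBA7) and 2 lower with a gene's probe sets averaged (IRF9 and OAS2). It was 0 lower without both UWKOS6 and UWKOS8, and 0 with the GAPDH ratio as a covariate, where 9 and 7 of 21462 probe sets passed in all. With 1 line left out it ran from 0 to 2 lower, with 2 (IRF9 and UBA7) without UWKOS7. Those fits called from 0.242% of all tested probe sets (without UWKOS6) to 14.8% (without UWKOS7). With both UWKOS6 and UWKOS8 left out, UWKOS2 stands alone in its group and is taken to vary as the tumorigenic lines do. The median over the members, -0.15, was 0.02 with centring on the hybridization controls and 0.08 without UWKOS6 and UWKOS8, and between -0.21 and -0.10 with 1 line left out. The count of 4 further pathway genes was 2 without the filter or with probe sets averaged, 9 with array weights, 0 without both lines or with the GAPDH ratio, and from 0 (without UWKOS6) to 7 (without UWKOS7) with 1 line left out. SAMD9L turned to 0.72 without both lines, and IFI44L to 0.30 in that setting and to 0.00 with its probe sets averaged. The causes were not tested. No paired analysis was possible because the replicate numbers follow accession order and pair nothing. The planned motif search in promoters was not run, since no sequence was used here. The number of arrays, and a mean below the filter for 13 of 33 members, limit what these values can show. Without detection calls it is not known which of those 13 were above background.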
